A study of Caenorhabditis elegans with 4 samples.

Results

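The compact, very strong PQM-1 binding sites were the 463 listed peaks with a q-value under 1e-20 and a width under 1000 bp. They were chosen from 5803 peaks in all, of which 604 (10.4%) had such a q-value. Among the 5536 peaks under 1000 bp, the 463 compact strong peaks were 8.36%, and the other 5073 served as the comparison. The q-value and the width chose the members, so both are given as a description, and so is every value that comes from the q-value.

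The libraries came from Caenorhabditis elegans strain OP201, which carries the mutation unc119(ed3) and the transgene wgIs201, with pqm-1 fused to TY1, EGFP and FLAG tags beside unc119. All were made from hermaphrodites at the L3 stage, grown at 20 °C and crosslinked with 2% formaldehyde, with 2 anti-GFP ChIP and 2 input DNA libraries. All groups carry the same transgene, introduced by bombardment, and the chromatin is that of whole animals, so binding in one tissue cannot be told apart from weaker binding in many. The values used here are 1 deposited list of peaks combined over the libraries, on WormBase WS180, and the q-value is the authors' own for each peak.

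The zinc finger protein PQM-1 acts as a transcription factor in the intestine of the worm. It is known for its part downstream of insulin-like signalling, where it and the FOXO factor DAF-16 are found in the nucleus under opposite conditions. A ChIP-seq peak marks a stretch where DNA bound by the tagged protein is recovered more often than input DNA. A sharp factor bound at 1 place usually gives a narrow peak, and several places close together can give a wide one. The genes and sequences at these peaks were not analysed here.

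The compact strong peaks were 463 of the 604 peaks with a q-value under 1e-20 (76.7%), and the other 141 were 1000 bp wide or more. Of all listed peaks, 5536 (95.4%) were under 1000 bp, so narrow peaks took a smaller share of the strongest class than of the list. Their share was lower at the very top of the list, with 5 of the first 10 peaks, 29 of the first 50 and 60 of the first 100. Among the first 400 it was 296 (74.0%). Together they covered 270.5 kb, or 9.97% of the listed sequence, and held 16.1% of the ChIP tags in listed peaks and 8.20% of the scaled control tags. The broad strong peaks covered 250.4 kb, or 9.22%, and held 11.2% of the ChIP tags and 13.7% of the control tags. A single broad strong peak, with 10560 ChIP and 8683 scaled control tags, weighs on both of these shares and more on the control. The shares without it were not computed.

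The tag numbers are whole numbers worked back from each q-value, as the caller's binomial test of ChIP against control defines it. They carry counting error only, since no value per replicate was analysed, and the control numbers are scaled by the caller. The intervals given below for the ratios of single peaks take these scaled numbers as counts, so they are approximate. The compact strong peaks held 121 to 478 ChIP tags, with a median of 203 (95% interval of the median 196 to 207). The other peaks under 1000 bp held 15 to 291, with a median of 76 (95% interval 74 to 77). As many ChIP tags as in the lowest compact strong peak were found in 872 of the others (17.2%). The control differed less. Its median was 33 scaled tags in the compact strong peaks and 26 in the others, and per kb it was 58.0 against 69.4.

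The compact strong peaks were wider than the other peaks under 1000 bp. The narrowest was 336 bp, the median was 529 bp (95% interval 513 to 548), and the 5th and 95th percentiles were 386 and 915 bp. The other peaks under 1000 bp had a median of 360 bp (95% interval 357 to 365) and 5th and 95th percentiles of 201 and 758 bp, and 2989 of them (58.9%) were at least 336 bp wide. By width, 195 of the compact strong peaks were under 500 bp, 152 were between 500 and 699 bp and 116 were between 700 and 999 bp. The share of compact strong peaks went up with width over most classes. It was 1.77% of the 1752 peaks of 300 to 399 bp, 15.9% at 400 to 499 bp, 17.5% at 500 to 599 bp, 17.6% at 600 to 699 bp, 23.9% at 700 to 799 bp, 22.1% at 800 to 899 bp and 28.4% at 900 to 999 bp.

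**Figure D1:**
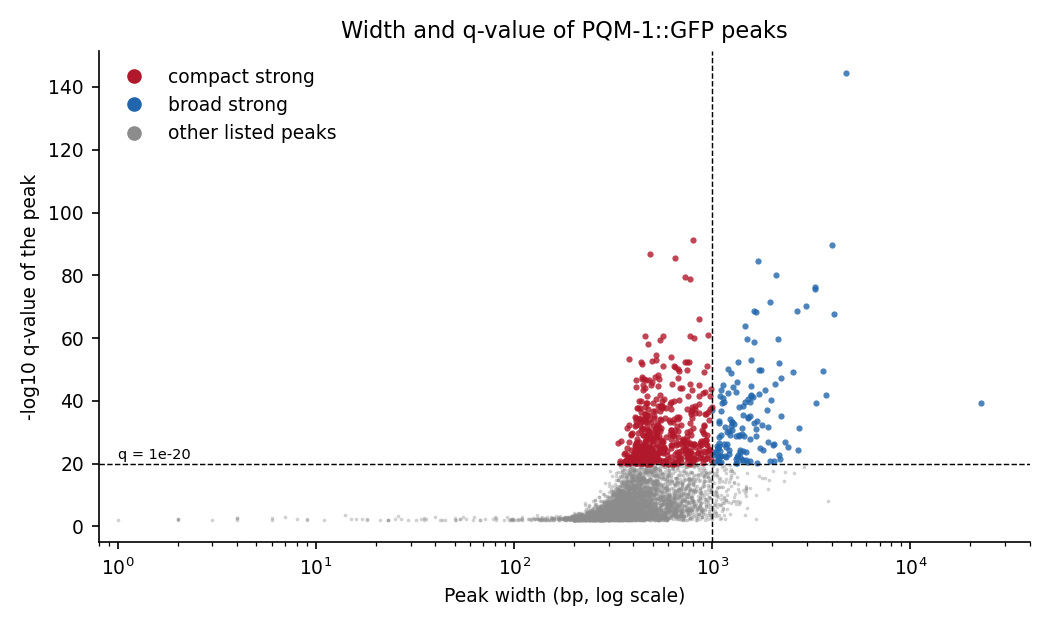
Each point is 1 listed peak, with its width in bp on a log axis and -log10 of its q-value; dashed lines mark 1000 bp and a q-value of 1e-20. The 463 compact strong peaks lie in the upper left field, none narrower than 336 bp, and the 141 broad strong peaks in the upper right.

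Among the strong peaks, the narrow ones had the highest ratios of ChIP to control. This ratio had a median of 6.16 over the compact strong peaks (95% interval 5.95 to 6.37), against 2.80 (95% interval 2.76 to 2.83) over the other peaks under 1000 bp and 3.98 (95% interval 3.68 to 4.29) over the broad strong peaks. It was 5 or more in 346 compact strong peaks (74.7%), 274 of the others (5.40%) and 33 broad strong peaks (23.4%). Of the 27 listed peaks with a ratio of at least 10, 25 were compact strong. The remaining 2 were 14 and 26 bp wide, with 17 and 16 ChIP tags. Within the compact strong peaks, the median ratio was 6.85 in those under 500 bp (95% interval 6.50 to 7.11), 6.04 at 500 to 699 bp (95% interval 5.70 to 6.37) and 4.95 at 700 to 999 bp (95% interval 4.68 to 5.33). Width had a Spearman's rho of -0.45 with the ratio and of 0.58 with the ChIP tags over the 463 peaks. Peaks are not replicates, and all of these values share the q-value.

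Wide members thus held more tags, spread more thinly. The median ChIP density was 402 tags per kb in the members under 500 bp, 372 at 500 to 699 bp and 293 at 700 to 999 bp. At equal width the members kept the higher ratio in all 7 width classes, which the limit on the q-value favours. At 300 to 399 bp the median ratio was 7.05 in the compact strong peaks and 2.89 in the others, and at 900 to 999 bp it was 4.71 against 2.52.

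**Figure D2:**
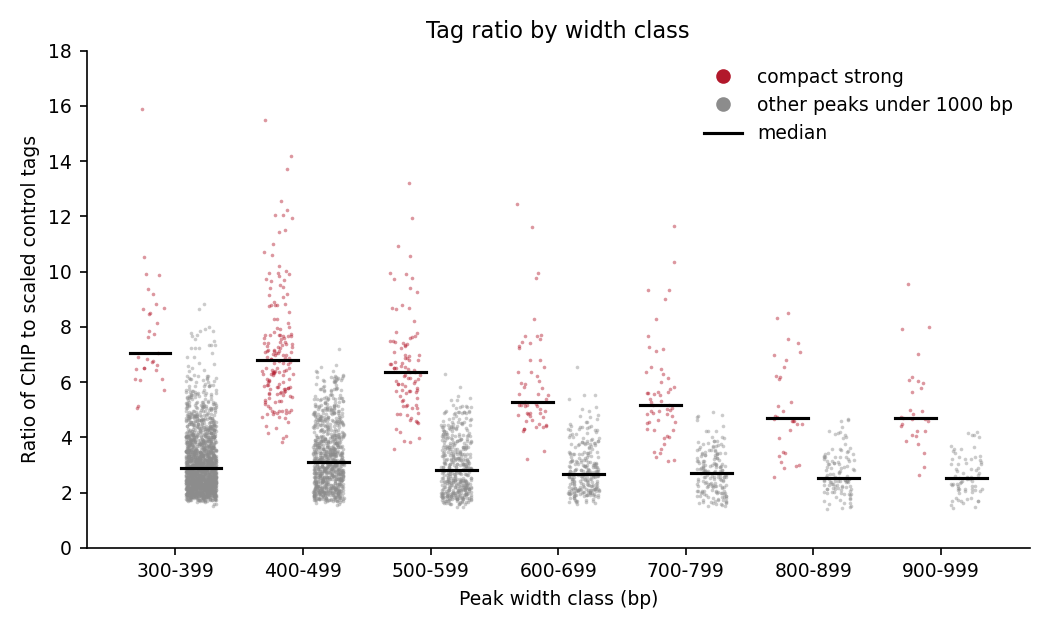
Ratio of ChIP to scaled control tags of each peak, in 7 classes of width from 300 to 999 bp, with compact strong peaks left and other peaks right in each class and black bars at the medians. The median of the compact strong peaks goes from 7.05 in the narrowest class to 4.71 in the widest.

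The strongest member of each chromosome shows what such a peak looks like. The strongest of all, II 2378327 to 2379123, was 797 bp wide and held 478 ChIP against 41 scaled control tags. Its nearest peak lay 33664 bp away. The strongest on IV, at 13919121 to 13919602, was only 482 bp wide and had the highest ChIP density of the members, with 426 against 30 tags and 884 ChIP tags per kb. It also stood alone, with the nearest peak 21288 bp away. On V, the peak at 13462596 to 13463367 held 472 against 57 tags (ratio 8.28, 95% interval 6.28 to 11.1). On III, the strongest member lay near the left end of the chromosome, at 154138 to 154580, with 264 against 21 tags (ratio 12.6, 95% interval 8.06 to 20.6). The strongest members of X and I had close neighbours. On X, the peak at 10141639 to 10142490 held 391 against 46 tags (ratio 8.50, 95% interval 6.25 to 11.8). A weak peak with 60 against 26 tags ended 200 bp to its left, the smallest gap in the list. On I, the peak at 4099468 to 4100215 was the weakest of the 6, with 242 against 34 tags (ratio 7.12, 95% interval 4.96 to 10.5) and row 143 of the list. Its nearest peak, 427 bp away, held 53 against 27 tags.

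The members with the highest and lowest ratios differed in both their control and their ChIP density. At II 1851731 to 1852111, 254 ChIP tags stood against 16 scaled control tags, which gave the highest ratio of the members, 15.9 (95% interval 9.59 to 28.2). The next, 15.5 (95% interval 9.63 to 26.5), was at V 8768400 to 8768873, with 279 against 18 tags, followed by the peak at IV 13919121 with 14.2 (95% interval 9.80 to 21.3). These 3 intervals overlap, so their order is not resolved. The lowest ratio, 2.56 (95% interval 2.09 to 3.16), was at X 13700248 to 13701141, with 341 against 133 tags, which is more ChIP tags than at the highest ratio. The next lowest lay at X 8035969 to 8036904 (345 against 130 tags, ratio 2.65) and I 4171934 to 4172746 (305 against 105 tags, ratio 2.90). Their control, 149, 139 and 129 tags per kb, was over the 95th percentile of the members, 97.4. Their ChIP density, 381, 369 and 375 tags per kb, was below the 667, 589 and 884 of the 3 highest ratios. Such members passed the limit on the q-value through their number of tags.

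At the limit on the q-value, the peaks inside and outside held similar numbers of tags. The 3 members just inside the limit on the q-value, V 1986742, X 6644780 and X 5812925, had q-values of 9.97e-21, 9.78e-21 and 9.59e-21, with 145 to 175 ChIP tags. The 3 peaks just outside, V 10190203, IV 8830522 and III 9786660, had 1.05e-20, 1.12e-20 and 1.20e-20, with 138 to 160. At the limit on the width, the ratios varied on both sides. The 3 widest members, X 10477026, X 14503792 and V 11887721, were 997, 988 and 986 bp wide, with ratios of 6.09, 3.85 and 5.80. The 3 narrowest peaks left out as broad, X 4244498, I 7489623 and II 14039747, were 1000, 1006 and 1016 bp wide, with ratios of 5.63, 3.42 and 2.79. At the other end, the 3 narrowest members were 336, 341 and 344 bp wide and lay at II 5553526, X 13937344 and III 8400432, with ratios of 9.87, 6.48 and 6.85.

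Location was compared next, as the rule does not use it. The scaled control that enters the q-value did differ between chromosomes, as given below. In this species, the arms of the autosomes recombine more often than the centres, and the centres hold more of the conserved genes. Each chromosome was taken to end at its largest listed coordinate and was divided into 3 parts of equal length. On the autosomes, 163 of 352 compact strong peaks lay in the middle part, or 46.3% (95% interval 41.0 to 51.7), against 1748 of 3995 other peaks under 1000 bp, or 43.8% (95% interval 42.2 to 45.3). The difference was 2.55 percentage points, with a 95% interval of -2.82 to 7.99 that includes 0. The compact strong peaks thus shared the excess of the whole list in the centres, and a further excess of their own was not detectable with this number of peaks. These intervals are exact binomial ones for shares and Newcombe's for differences. They cover counting error only and take peaks as independent, and as the list has no value per library no test was made.

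The share in the middle part varied between chromosomes within wide intervals. Compact strong peaks had the higher share on 5 of 6 chromosomes, by 11.3 percentage points on I, 6.37 on II, 3.85 on III, 2.99 on V and 2.63 on X. On IV they had the lower one, 41.8% (95% interval 32.0 to 52.2) against 45.7% (95% interval 42.4 to 49.0). IV differed at its right end, chosen here after the values were seen. There, 36 of its 98 compact strong peaks (36.7%, 95% interval 27.2 to 47.1) lay in the right part, against 220 of 913 others (24.1%, 95% interval 21.3 to 27.0). On I, 3 of 27 compact strong peaks lay in the right part (11.1%, 95% interval 2.35 to 29.2), against 118 of 484 others (24.4%).

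Toward the chromosome ends, the share of members differed by no more than the counting error. In the outermost class on the autosomes, within 10% of the chromosome's length from an end, they were 43 of 627 peaks under 1000 bp, or 6.86% (95% interval 5.01 to 9.13). At 30% to 40% from an end they were 99 of 1070, or 9.25% (95% interval 7.58 to 11.1), and in the innermost class 7.71% (95% interval 6.25 to 9.38). These intervals overlap. On X the same classes held 8.60% and 8.21%, with 10.8% in the innermost class, so X showed no ordered change with distance from an end.

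The chromosomes differed in how many of their narrow peaks were very strong. On X, 111 of the 1189 peaks under 1000 bp were compact strong, or 9.34% (95% interval 7.74 to 11.1), on IV 9.69% (95% interval 7.94 to 11.7) and on V 8.79% (95% interval 7.25 to 10.6). The share was 7.74% on III, 7.22% on II and 5.28% on I, where 27 of 511 peaks were members (95% interval 3.51 to 7.60). The interval of I lies below those of IV and X and below 8.36%, the share over all chromosomes. Per length, X held 6.26 compact strong peaks per Mb and I held 1.79, while the other peaks under 1000 bp numbered 60.8 per Mb on X and 32.1 on I. The scaled control was highest on I, and its part in the difference was not tested. Over the members it was 72.8 tags per kb on I (95% interval 66.5 to 91.6), against 54.6 on IV (95% interval 50.9 to 58.1) and 59.7 on X (95% interval 56.9 to 63.2). It was 63.8 on II, 57.9 on III and 55.2 on V. The control did not follow the share throughout, as X had more control than III and V but a higher share. The ChIP density of the members was 400 tags per kb on I (95% interval 372 to 426), 366 on IV and 374 on X. X held 24.0% of all compact strong peaks (95% interval 20.2 to 28.1) and 21.2% of the others (95% interval 20.1 to 22.4), a difference of 2.72 percentage points with an interval of -1.12 to 6.96. The sign turned with width. Under 500 bp, 17.4% of the compact strong peaks lay on X (95% interval 12.4 to 23.5) and 20.7% of the others. From 500 to 999 bp these shares were 28.7% (95% interval 23.4 to 34.6) and 23.3% (95% interval 20.8 to 25.9).

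**Figure D3:**
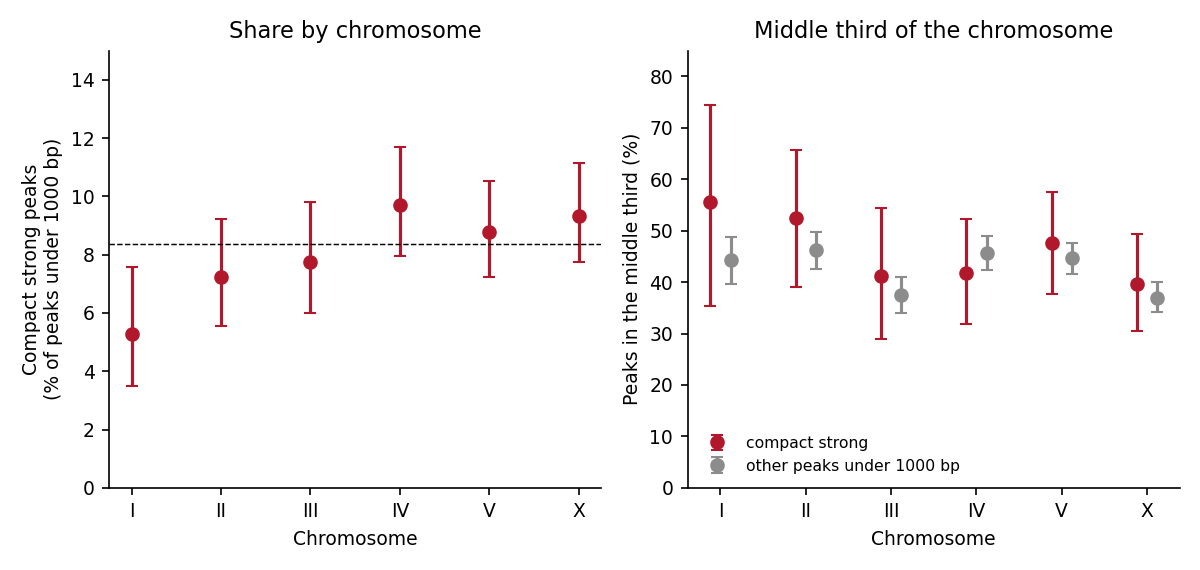
Left, compact strong peaks as a percentage of the peaks under 1000 bp on each chromosome, with a dashed line at the share over all, 8.36%. Right, percentage of compact strong peaks (left points) and of other peaks under 1000 bp (right points) in the middle part of each chromosome; bars are exact 95% binomial intervals, which overlap between both kinds on every chromosome.

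By measures other than the one first chosen, near neighbours separated the compact strong peaks from the other narrow peaks more than location did. By those measures, broad strong peaks had them about as often. Another midpoint within 1 kb, the distance first chosen, was found for 79 of 463 compact strong peaks, or 17.1% (95% interval 13.7 to 20.8), and for 844 of 5073 others, or 16.6% (95% interval 15.6 to 17.7). The difference was 0.426 percentage points, with a 95% interval of -2.90 to 4.25. The next kilobase was different. The nearest midpoint lay at 1 to 2 kb for 186 compact strong peaks, or 40.2% (95% interval 35.7 to 44.8), and for 1198 others, or 23.6% (95% interval 22.5 to 24.8). The median distance to the nearest midpoint was 1.65 kb for compact strong peaks (95% interval 1546 to 1884 bp) and 2.74 kb for the others (95% interval 2604 to 2865 bp).

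Wide peaks keep midpoints apart, so the gap between the edges was measured as well, a choice made after the first result was seen. A gap of up to 1 kb separated 222 compact strong peaks from another peak, or 47.9% (95% interval 43.3 to 52.6), against 1531 others, or 30.2% (95% interval 28.9 to 31.5). The difference was 17.8 percentage points (95% interval 13.1 to 22.5). Among the 141 broad strong peaks the share was 52.5% (95% interval 43.9 to 60.9), and their nearest midpoint lay at 1 to 2 kb in 41.8% (95% interval 33.6 to 50.4). Both intervals overlap those of the compact strong peaks, so near neighbours were not particular to the compact ones. Weaker peaks of 1000 bp or more were not taken as a separate group. Whether the share goes with strength among broad peaks was thus not tested. When the others were weighted to the widths of the compact strong peaks, their share was 35.8% and the difference 12.1. When every peak was set to 400 bp about its midpoint, the difference was 12.2. The others with a q-value under 1e-10 had a share of 37.7%, and the difference was then 10.3. Width and a lower limit on strength thus each went with part of the difference. By width class, the intervals of the shares are separate only at 500 to 599 bp. There the shares were 55.8% (95% interval 45.2 to 66.0) for compact strong peaks and 35.0% (95% interval 30.6 to 39.7) for the others. In the other classes from 300 to 799 bp the compact strong peaks had the higher share, with overlapping intervals. From 800 to 999 bp they had the lower share, again with overlapping intervals. At 800 to 899 bp the shares were 40.6% against 41.6%, and at 900 to 999 bp 44.8% against 47.9%.

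The excess was found on each chromosome. It was largest on I, with 13 of 27 compact strong peaks (48.1%, 95% interval 28.7 to 68.1) against 97 of 484 others (20.0%, 95% interval 16.6 to 23.9). The shares were 52.5% against 30.6% on II, 46.9% against 31.1% on IV, 51.4% against 33.4% on V and 46.8% against 31.7% on X. On III, at 41.3% (95% interval 29.0 to 54.4) against 28.2% (95% interval 25.03 to 31.6), the intervals overlap. In the middle parts of the autosomes the shares were 55.2% for compact strong peaks and 36.2% for the others, and in the outer parts 42.3% and 24.8%. Both kinds of peak were closer to a neighbour in the centres, and the difference between them was about the same in both parts.

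With strength the share went up in steps. It was 26.8% (95% interval 25.1 to 28.5) for the 2592 peaks under 1000 bp with -log10 q below 5, 31.0% from 5 to 10, 36.5% from 10 to 15 and 40.1% (95% interval 34.9 to 45.4) from 15 to 20. Among compact strong peaks it was 49.8% (95% interval 43.9 to 55.8) from 20 to 30 and 44.9% (95% interval 37.4 to 52.6) above 30. The limit of 1e-20 therefore fell within a gradual change, and above 30 no further increase was detectable. The median width went up over the same 6 classes, from 302 to 546.5 bp.

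**Figure D4:**
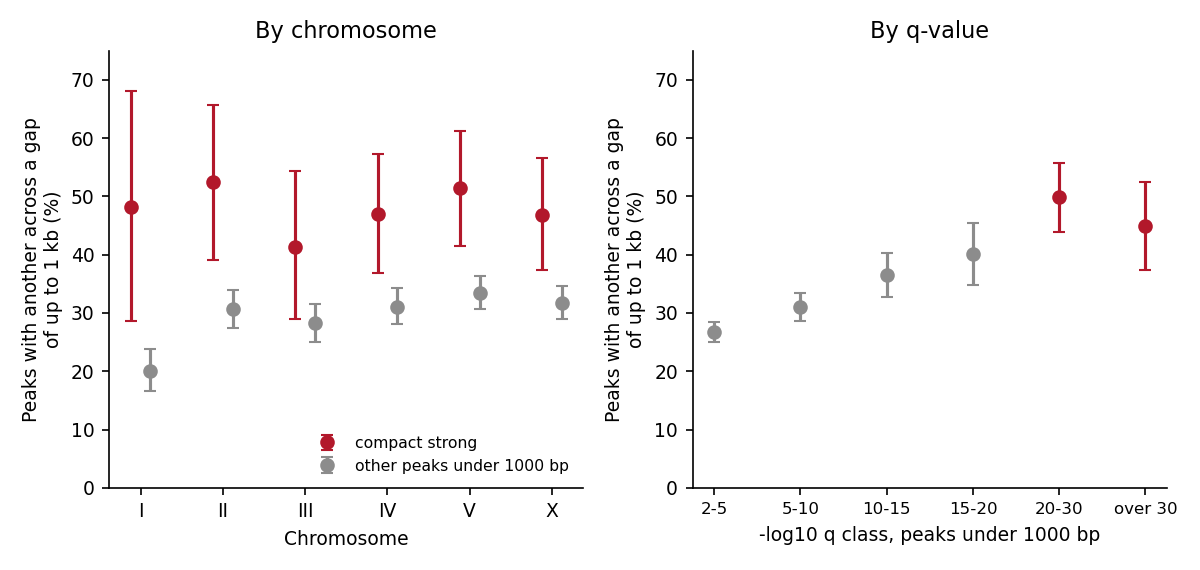
Percentage of peaks with another peak across a gap of up to 1 kb, by chromosome (compact strong left, other peaks under 1000 bp right) and by class of -log10 q (compact strong in red); bars are exact 95% binomial intervals. The compact strong share is the higher one on all 6 chromosomes, and the share goes from 26.8% in the weakest class to 49.8% in the class from 20 to 30.

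The excess of neighbours became smaller with distance. Within 1 kb of the midpoint there were 17.5 other peaks per 100 compact strong peaks, against 17.8 per 100 others. At 1 to 2 kb there were 57.0 against 34.3, a ratio of 1.66. It was 1.29 at 2 to 5 kb (91.6 against 71.3) and 1.13 at 5 to 10 kb (92.4 against 81.9). At 10 to 50 kb the numbers were the same, 528 against 529 per 100 peaks, a ratio of 0.999. The excess over the others was thus largest per kb at 1 to 2 kb. No interval was computed for these counts. At 5 to 10 kb the excess was small, and whether it reaches that far is not resolved.

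**Figure D5:**
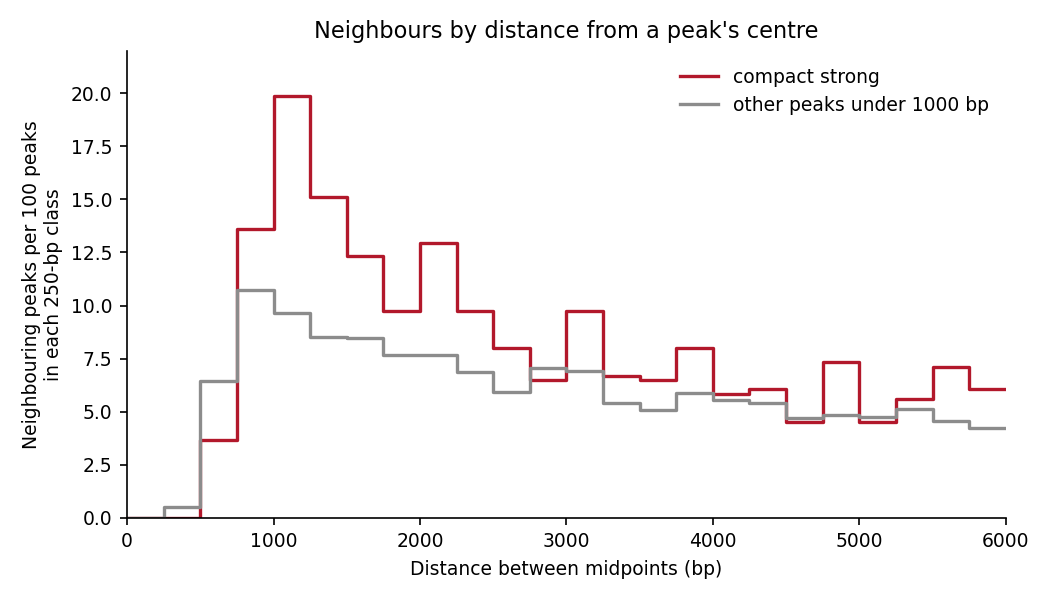
Number of other listed peaks per 100 peaks, in classes of 250 bp of the distance between midpoints, for compact strong peaks (red) and other peaks under 1000 bp (grey). The red line reaches 19.9 at 1000 to 1250 bp, where the grey one is at 9.64, and from 4000 to 6000 bp red lies between 4.54 and 7.34 and grey between 4.24 and 5.54.

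The near neighbours of compact strong peaks were somewhat more enriched than those of the other narrow peaks. The 222 nearest peaks across a gap of up to 1 kb had a median width of 460 bp, 105 ChIP and 27 scaled control tags, and a ratio of 3.39 (95% interval 3.16 to 3.67). The near neighbours of the 1531 other peaks had 91 ChIP and 27 control tags, and a ratio of 3.05 (95% interval 2.97 to 3.12). Each neighbour has passed the caller's test by its own tags. Where it is itself a compact strong peak, its q-value is also set by the rule. Such a pair can be counted from both sides, so these values are partly made by the rule. Of the 222, 51 had a q-value under 1e-20 (23.0%), 56 one from 1e-20 to 1e-10 and 115 (51.8%) a weaker one. Of the 1531 near neighbours of the others, 214 had a q-value under 1e-20 (14.0%) and 976 one of 1e-10 or more (63.7%), and over the whole list 10.4% of the peaks were under 1e-20. Neighbours lay on either side alike. A gap of up to 1 kb was found on the left only for 94 compact strong peaks, on the right only for 92 and on both sides for 36 (7.78%, 95% interval 5.50 to 10.6), against 4.30% with both sides among the others (95% interval 3.76 to 4.89).

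Compact strong peaks with and without such a neighbour differed little in their own values. Their median ratio was 6.02 (95% interval 5.70 to 6.35) with one and 6.33 (95% interval 6.03 to 6.59) without, their median ChIP tags 199.5 and 205, and their median width 551 and 514 bp, with overlapping intervals. On the autosomes, 52.9% of those with a neighbour lay in the middle part, against 40.1% of those without.

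Very strong peaks also lay next to each other. The nearest peak had a q-value under 1e-20 for 80 compact strong peaks, or 17.3% (95% interval 13.9 to 21.0), and for 534 others, or 10.5% (95% interval 9.69 to 11.4), a difference of 6.75 percentage points (95% interval 3.46 to 10.6). Among broad strong peaks the share was 17.0%, or 24 of 141 (95% interval 11.2 to 24.3), close to that of the compact ones. That peak was itself compact for 68 of the 80 and broad for 12. A broad strong peak within 5 kb was found for 25 compact strong peaks (5.40%) and 165 others (3.25%). Another compact strong peak lay within 2 kb of 64 members, or 13.8% (95% interval 10.8 to 17.3), against 5.13% of the other peaks under 1000 bp (95% interval 4.53 to 5.77). Within 50 kb these shares were 51.8% (95% interval 47.2 to 56.5) and 41.3% (95% interval 39.9 to 42.6). A member is counted from both sides of a pair, and the interval ignores this.

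The closest pairs of members were separated by little more than the smallest gap in the list. At IV 14413378 to 14413838 and 14414100 to 14414559, peaks of 461 and 460 bp lay 261 bp apart, with ratios of 7.68 (95% interval 4.91 to 12.6) and 8.83 (95% interval 6.00 to 13.5). At V 12001953 to 12002561 and 12002817 to 12003239, the gap was 255 bp and the ratios were 5.27 (95% interval 3.87 to 7.30) and 6.00 (95% interval 4.01 to 9.30). In both pairs the ratios of the partners had overlapping intervals. The third pair, at IV 8527345 to 8528069 and 8528341 to 8528819, was 271 bp apart and uneven in tags, with 338 ChIP tags in the left peak and 159 in the right.

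The 3 members closest to a broad strong peak lay at X 5840930 to 5841580, V 11887721 to 11888706 and V 6614318 to 6614879. Their gaps to it were 232, 283 and 698 bp. The first was close to its broad partner in ratio, with 3.20 (95% interval 2.52 to 4.11) against 3.33 (95% interval 2.60 to 4.31). The last was far more enriched than its partner, with 13.2 (95% interval 8.65 to 21.2) against 4.72 (95% interval 3.42 to 6.63), and these intervals do not overlap.

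At the other extreme, 49 compact strong peaks (10.6%, 95% interval 7.93 to 13.7) had no other midpoint within 10 kb, against 1079 others (21.3%, 95% interval 20.1 to 22.4). Of the broad strong peaks, 14 (9.93%, 95% interval 5.54 to 16.1) were as isolated. These isolated members had values close to those of all members, with a median of 205 ChIP tags, a ratio of 5.93 (95% interval 5.41 to 6.76) and a width of 482 bp. The most isolated was III 6693170 to 6693623, with 157 against 29 tags and its nearest peak 67644 bp away. It was followed by III 12003073 to 12003579 at 53566 bp, with 160 against 27 tags, and I 2587337 to 2588013 at 51518 bp, with 293 against 62. Peaks of this strength thus occurred with no other listed peak within 50 kb.

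Along the chromosomes the members were sparse. The median distance from one to the nearest other was 44.9 kb. From the other peaks under 1000 bp to the nearest member it was longer, 66.7 kb. Of 1005 windows of 100 kb, 677 (67.4%) held no compact strong peak, 230 held 1, 73 held 2 and 25 held more. The densest window, IV 13300001 to 13400000, held 6 of them among 11 peaks under 1000 bp. They lay in a group of 4 between 13314087 and 13327458 and a group of 2 between 13392992 and 13396851, with ratios from 4.66 to 9.92. In 5 of these 6 the gap to the nearest peak was under 1 kb. The window IV 8500001 to 8600000 held 5 members, 3 of them between 8527345 and 8531073. The window X 3200001 to 3300000 also held 5, but none had a peak across a gap of up to 1 kb, and their ratios ran from 4.68 to 8.75. A cluster of members at the scale of 100 kb was therefore not always a cluster at the scale of 1 kb. The longest stretch without a member, 3274 kb on I from 10777830 to 14051739, held 76 other peaks, and the next, 1747 kb on IV from 854787 to 2601926, held 68.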

How the data were processed

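ChIP and input DNA of L3 worms were compared by the authors' peak caller. Per the file headers, coordinates are on WormBase WS180 and peaks were called with PeakSeq. The deposited list used here is a combined one with a q-value for each peak. The aligner, the PeakSeq version, the depth of each library and how replicates were combined were not given in the sources used here. Values per library were not analysed here, so no test over samples was made.

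The q-value was read as p times 12873 tested regions divided by the row number, where p is the binomial probability of at most the observed control tags at a chance of 0.5. With 12873, 100% of 200 sampled peaks matched, against 1.00% at the next best number. Exactly 1 pair of ChIP and scaled control tags was found for 5802 peaks, and 1 peak with 2 pairs was left out where tags are used. The control is scaled by the caller and is not raw input. The recovery and the neighbour search were tested on simulated peaks.

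Ratios of single peaks carry Clopper-Pearson 95% intervals, medians order-statistic intervals from the binomial distribution, and differences of shares Newcombe intervals. All cover counting error only. Those of single ratios take the scaled control as a raw count, so they are approximate, and the unscaled counts were not known. Python 3.11.15, numpy 2.4.6, scipy 1.17.1 and pandas 2.3.3 were used. Members, measures and named regions were chosen with earlier results of these data known. Regions are named by a rule: the strongest member of each chromosome, and 3 each of the highest and lowest ratio, the narrowest, the widest, the closest pairs, the closest to a broad strong peak, the most isolated, the windows of 100 kb with most members, and the peaks on each side of both limits. The longest stretches were added after their values were seen. Alternatives changed the limits, the comparison set, the chromosomes, the centre and the measure of distance.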

Additional observations from a re-analysis of the deposited data

How the results depend on the processing

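Of 140 alternative values of shares and differences, 117 stayed within the 95% interval of the value reported. The excess of compact strong peaks with another peak across a gap of up to 1 kb was positive in all 21 alternatives, from 10.3 to 19.1 percentage points, and that of a very strong nearest peak in all 16, from 4.80 to 8.50; both lists include leaving out each chromosome. The gap result and its alternatives were chosen after seeing the data. Its difference was 10.3 against others with q under 1e-10, 12.1 against others matched on width, 12.2 with every peak set to 400 bp, 13.1 with only neighbours of q under 1e-10 and 11.2 with members ranked by tag ratio; the share itself was 42.6% for members under 500 bp and 41.9% with ranking by ratio. The planned measure, midpoints within 1 kb, depended on the distance. It gave 57.2% and a difference of 17.0 at 2 kb, 79.3% and 14.5 at 5 kb, and 47.9% and 17.8 with gaps. It gave 13.1% and -3.72 for q under 1e-30, and 22.6% and 5.33 for widths under 500 bp. The number of members was 810 at q under 1e-15, 176 at q under 1e-30, and 195, 371 and 542 at widths under 500, 750 and 1500 bp. Ranking by ratio kept 307 of the 463 members (66.3%), and its difference in the middle part was -2.85. On X it gave 17.5% and a difference of -4.35, and widths under 500 bp gave 17.4% and -3.27. Taking the middle 50% of each autosome as the centre gave 65.6%. No paired analysis was possible because the list used is 1 combined one with no value per library; this also kept any replicate from being left out. The causes of these changes were not tested.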
